A study of Homo sapiens with 4 samples.

Results

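Respiratory complex I is the enzyme that takes electrons from NADH at the start of the mitochondrial respiratory chain, and its genes were followed in cells with and without forced expression of ZSCAN18. The members were taken by name from 1 expression table, as protein-coding genes of the NDUFA, NDUFB, NDUFC, NDUFS and NDUFV series, NDUFAB1, the NDUFAF assembly factors and the MT-ND genes, with read-through genes left out. This gave 54 of the 60612 genes in the table, of which 39 are nuclear genes named as subunits, 7 are subunits of the mitochondrial genome and 8 are assembly factors. The filter on low values was passed by 53 of them, among 11822 tested genes, and NDUFA4L2 was the member that did not pass.

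RNA was sequenced from NCI-N87, an established human gastric carcinoma line with an amplified ERBB2 gene, in 4 libraries. In 2 libraries the cells carried the puromycin-selectable vector PLVX-IRES-Puro-ZSCAN18, which expresses the SCAN-domain zinc finger gene ZSCAN18, and in 2 the empty PLVX-IRES-Puro. All cells were transfected for 24 hours and selected with puromycin for 4 days, with RNA taken at 5 days, so the controls had the vector and the drug too. All 4 libraries come from 1 cell line, nothing in the labels says that they came from separate cultures, and the p-values then cover only the spread among these samples, in part possibly technical.

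Complex I joins a matrix arm, which holds the NADH site and a chain of iron-sulfur clusters, to a membrane arm, which pumps protons. Its catalytic core is built from subunits of both genomes, the membrane core being encoded in mitochondrial DNA and the matrix core in the nucleus. The other nuclear subunits are called accessory and surround the core, and the assembly factors help to build the enzyme without staying in it.

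Values are FPKM, that is, fragments per kilobase of message scaled to each library's mapped total. Being per length, they can be compared between genes, but only roughly for short or overlapping ones. The table's totals came to 293062 and 296112 FPKM with ZSCAN18 against 312147 and 304029 with the empty vector, and 11493 to 11738 genes reached an FPKM of 1. ZSCAN18 itself stood at 116 and 112 FPKM in the libraries of its group and at 0.108 and 0.144 in the empty vector libraries. Epithelial markers were present in every library, with differences of both signs. KRT18, an epithelial keratin, passed the gene test described further on, at 675 and 682 FPKM with ZSCAN18 against 893 and 887 in the controls, a log2 fold change of -0.39 with an adjusted p in limma of 0.0408. The log2 fold changes of the others, which did not pass, were -0.43 for its partner KRT8, -0.21 for ERBB2, -0.10 for EPCAM, 0.01 for KRT19 and 0.32 for CDH1. The mesenchymal markers VIM and COL1A1, with values of at most 2.80 and 1.46 FPKM, were at 0.25 and 0.41 and did not pass either. The leukocyte gene PTPRC stayed at or under 0.169 FPKM and the endothelial gene PECAM1 at or under 0.0277. The part of these differences in the complex I values was not tested. In bulk RNA, fewer cells that express a gene and less RNA of it per cell cannot be told apart.

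The nuclear members had a median transcript length of 801 bases, with a range from 407 to 4502.5, and some held promoter motifs of factors known for respiratory chain genes. RefSeq promoters (GRCh38.p14, 250 bases before to 50 after the start) were found for 39 of the 47 nuclear members. The full palindromic site of the activator NRF1 was present in 3 of these 39 (7.69%) and in 1.36% of 27305 promoters. Its shorter form TGCGCA, which can overlap the palindrome and reads the same on both strands, was present in 12 of 39 (30.8%) against 8.42% of all promoters. The motif AAGATGGCG of YY1, on either strand, was found in 5 of 39 (12.8%) against 1.85%, and the ETS motif CCGGAAGT in 2 of 39 (5.13%) against 4.44%. CCAAT, bound by NF-Y, was in 28.2% of the members and 35.7% of all promoters, and the SP motif GGGCGGG in 25.6% and 32.9%. A match describes letters in this window and does not show a bound site.

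The 250 bases before the start are shown for the 4 members that had the lowest log2 fold changes among those with a promoter, chosen after their values were seen; capitals mark the NRF1 palindrome, its shorter form, and the ETS and YY1 motifs.
NDUFB4, chr3:120596086-120596335, plus strand: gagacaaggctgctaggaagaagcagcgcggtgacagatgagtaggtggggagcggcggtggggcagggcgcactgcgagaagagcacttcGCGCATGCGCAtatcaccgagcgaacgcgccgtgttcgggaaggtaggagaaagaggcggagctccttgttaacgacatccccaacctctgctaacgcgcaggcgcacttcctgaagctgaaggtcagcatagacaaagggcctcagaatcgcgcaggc
NDUFA6, chr22:42090773-42091022, minus strand: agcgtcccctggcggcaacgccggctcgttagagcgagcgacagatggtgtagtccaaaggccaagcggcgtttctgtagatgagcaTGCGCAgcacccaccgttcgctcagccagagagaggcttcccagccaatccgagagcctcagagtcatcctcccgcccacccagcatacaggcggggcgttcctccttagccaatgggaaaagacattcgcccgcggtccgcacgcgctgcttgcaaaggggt
NDUFB1, chr14:92121707-92121956, minus strand: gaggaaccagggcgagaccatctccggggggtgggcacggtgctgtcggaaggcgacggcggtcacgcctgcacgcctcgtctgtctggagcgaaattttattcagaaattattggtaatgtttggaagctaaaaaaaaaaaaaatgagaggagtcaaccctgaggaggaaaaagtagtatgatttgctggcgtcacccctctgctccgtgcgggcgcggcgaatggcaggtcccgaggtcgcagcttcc
NDUFAF2, chr5:60944955-60945204, plus strand: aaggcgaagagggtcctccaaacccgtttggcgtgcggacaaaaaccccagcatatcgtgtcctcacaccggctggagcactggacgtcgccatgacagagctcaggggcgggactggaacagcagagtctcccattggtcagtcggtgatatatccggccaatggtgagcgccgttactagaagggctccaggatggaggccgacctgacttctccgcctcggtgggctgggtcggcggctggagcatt
NDUFB4 held the palindrome from base -159 and the shorter form from base -154, counted back from the start, and NDUFA6 held the shorter form from base -163 as well as AAGATGGCG from base 26 after the start, outside the stretch printed. NDUFB1 and NDUFAF2 held none of these 4 motifs in the window. The other holders of the palindrome were NDUFA8 and NDUFAF5, each from base -4. Their log2 fold changes were -0.06 and -0.12, with overlapping groups. A link between the motif and the fold change was not tested.

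The levels of complex I messages spanned a wide range in these cells, with the mitochondrial genome far above the nucleus. The MT-ND genes summed to 27372 and 27320 FPKM with ZSCAN18 against 31974 and 29579 with the empty vector, and the nuclear subunits to 1116 and 1228 against 1318 and 1281. The ratio of these sums was 24.5 and 22.2 in the ZSCAN18 group and 24.3 and 23.1 in the controls, so the groups overlapped in it. MT-ND4L, with a length of 297 bases, had the highest mean of all members, 6136 FPKM, and MT-ND5 the lowest of the mitochondrial ones, 1903 FPKM. Among nuclear members NDUFS5, a small accessory subunit on the intermembrane space side, was highest at 211 and 241 FPKM with ZSCAN18 against 258 and 258 with the empty vector. It was followed by NDUFA1 at 93.8 and 104 against 128 and 102. The lowest tested subunits were NDUFA5, at 2.0 and 1.96 against 1.91 and 1.68, and NDUFS7, at 1.56 and 1.85 against 2.09 and 2.23. The median level was 10.4 FPKM over the 7 nuclear core subunits, 23.0 over the 31 tested accessory subunits, 8.73 over the 8 assembly factors and 5.59 over all tested genes.

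**Figure D1:**
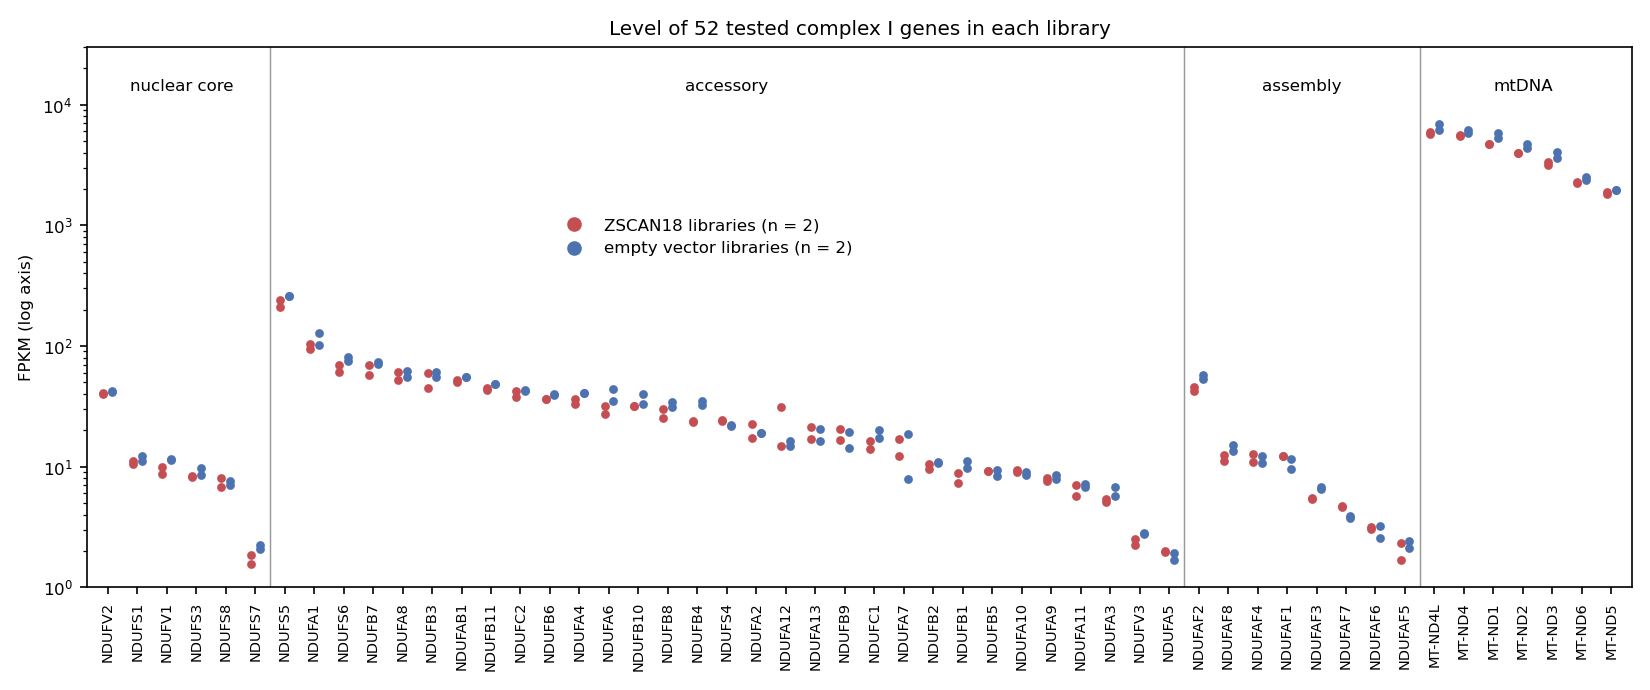
FPKM on a log axis for 52 of the tested complex I genes, sorted by mean level within the nuclear core, accessory, assembly factor and mitochondrial (mtDNA) groups, with 1 point per library. The mitochondrial genes lie above 1000 FPKM and the nuclear members at or below the 258 of NDUFS5.

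No complex I gene passed the gene test. In limma on log2(FPKM + 1), with Benjamini-Hochberg adjustment over all 11822 genes and a threshold of 0.05, 0 of 53 members were higher, where 0.795% of tested genes were, and 0 were lower, where 0.973% were. At an unadjusted p under 0.05 in limma, 12 members were lower and 1 higher, beside 11% of all tested genes lower and 15.9% higher. The log2 fold change was negative in 38 members, against 42.9% of all tested genes, and the median was -0.12 over the 53 members and 0.04 over all tested genes. Both ZSCAN18 libraries lay below both empty vector libraries in 31 of 53 members (58.5%), a position held by 24.4% of all tested genes. Both lay above in 4, a position held by 35.8% of all tested genes, and in 18 members the groups overlapped. With 2 libraries per group a missed threshold does not show that a gene kept its level, and an exact permutation test could not go below p = 0.33. No member (0 of 54) in the authors' deposited table had a q-value under 0.05 and 2, NDUFB4 and NDUFA6, had a p-value under 0.05.

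**Figure D2:**
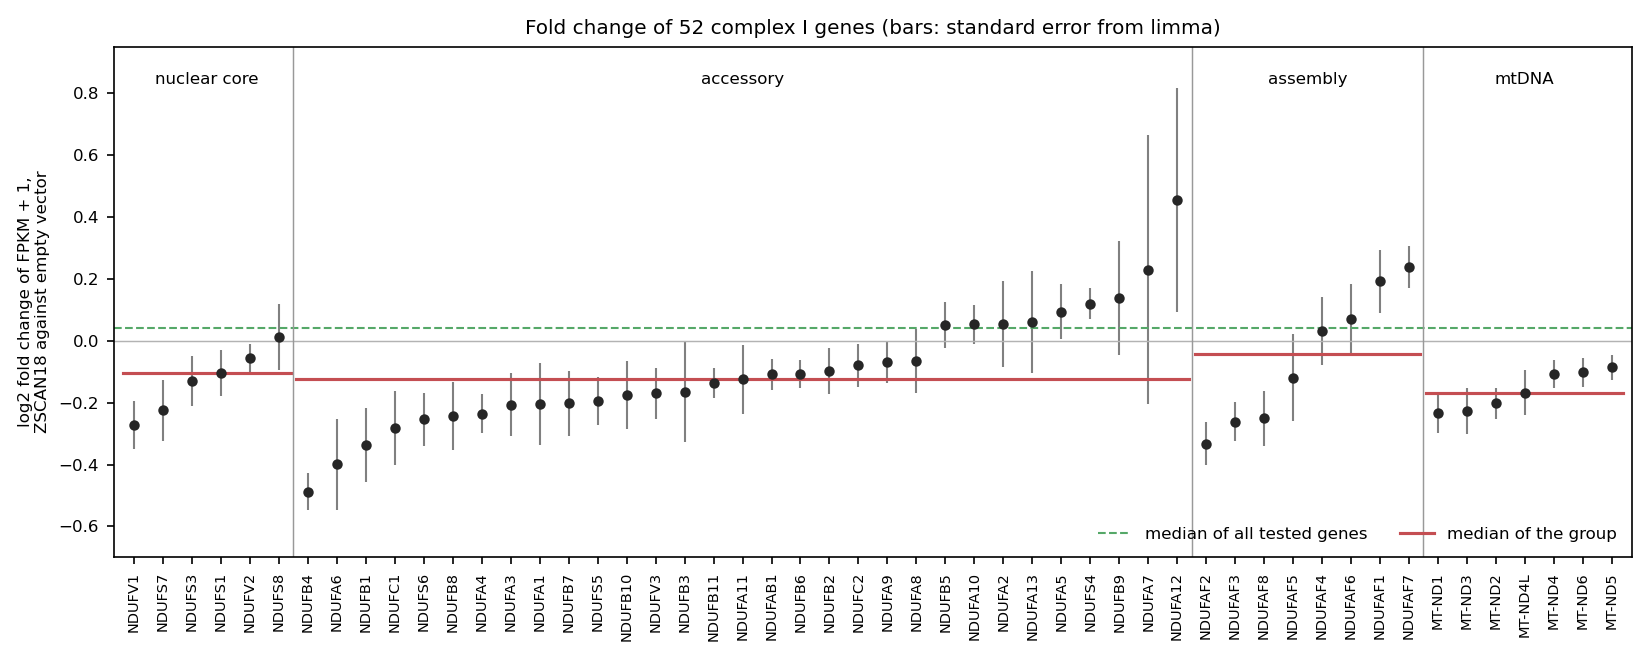
Log2 fold change of FPKM + 1 (ZSCAN18 against empty vector, 2 libraries each) of 52 tested complex I genes, each with its standard error from limma, sorted within each group; red lines are the medians of the whole groups and the green dashed line is the median of all tested genes. NDUFB4 is lowest at -0.49, and NDUFA12 is highest at 0.46 with the second widest error.

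The nuclear core of the matrix arm had small differences. Its 7 genes had a median log2 fold change of -0.10, with 5 negative, 5 whose groups did not overlap, 1 with a limma p under 0.05 before adjustment and 0 that passed. Over all tested genes 42.9% were negative, 24.4% lay lower and 35.8% higher without overlap, and 11% were lower at such a p. NDUFV1, which binds NADH and the flavin, was at 9.83 and 8.76 FPKM with ZSCAN18 against 11.3 and 11.6 with the empty vector. That is a mean of 9.3 ± 0.757 (SD, n = 2) against 11.4 ± 0.239, a log2 fold change of -0.27 (SE 0.077) with an adjusted p in limma of 0.137, and both ZSCAN18 libraries were the lower ones. NDUFS7, which carries the last iron-sulfur cluster before the quinone, had a log2 fold change of -0.22 at the low level given above. NDUFS1, the largest core subunit, was at 11.2 and 10.5 FPKM against 11.2 and 12.3, so its nearest libraries almost met. NDUFV2, an iron-sulfur protein beside NDUFV1, was at 40.3 and 41.0 against 41.9 and 42.7, a difference of -0.06 on the log2 scale. NDUFS3 and NDUFS8, which stand along the path to the quinone, had log2 fold changes of -0.13 and 0.01, and the groups overlapped in NDUFS8.

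Most accessory subunits of the membrane arm had values below those of the empty vector. Of 20 genes 16 were negative, 3 of them with a limma p under 0.05 before adjustment, 11 had groups that did not overlap, all in the lower direction, and 0 passed, with a median log2 fold change of -0.15. The share lower without overlap was 55%, against 24.4% of all tested genes, and the 3 of 20 compare with 11% of all tested genes. That share was 31.2% among tested genes with a median transcript of up to 1000 bases and 34.8% among those between 20 and 100 FPKM. NDUFB4 (ENSG00000065518, chromosome 3, from 120596328 in the table's coordinates, plus strand), an accessory subunit of the distal membrane arm, was at 23.5 and 24.0 FPKM with ZSCAN18 against 35.0 and 32.5 with the empty vector. Both ZSCAN18 libraries were lower by a margin wider than the spread in either group. The mean was 23.8 ± 0.35 (SD, n = 2) against 33.8 ± 1.77, which is 29.6% less, with a log2 fold change of -0.49 (SE 0.060) and an adjusted p in limma of 0.0559, the lowest of the members. NDUFB4 passed when only genes with an FPKM of at least 5 were tested (adjusted p = 0.0398 in limma) and after median-of-ratios scaling (adjusted p = 0.0464 in limma), and its adjusted p ranged from 0.0398 to 0.222 over all alternatives.

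NDUFB1, a small subunit of the same arm, was at 7.35 and 8.88 FPKM with ZSCAN18 against 11.2 and 9.78 with the empty vector, with a log2 fold change of -0.34 (SE 0.120). NDUFB8 was at 25.3 and 30.3 against 34.4 and 31.4, and NDUFB7 at 57.0 and 69.0 against 73.8 and 70.9. In these genes the groups did not overlap, but the ZSCAN18 libraries differed from each other by more than the gap between the groups. NDUFB11 and NDUFB6 had narrow spreads and small differences: NDUFB11 was at 44.9 and 43.1 against 48.0 and 48.8, and NDUFB6 at 36.6 and 36.6 against 39.2 and 39.8. The 11 NDUFB genes had a median of -0.17, and NDUFB9 and NDUFB5 were the 2 with a positive value, at 0.14 and 0.05. NDUFB10, NDUFB2 and NDUFB3 were at -0.18, -0.10 and -0.17. NDUFC1 had a log2 fold change of -0.28 and NDUFC2 one of -0.08. NDUFS5, NDUFA1 and NDUFA3 were at -0.19, -0.20 and -0.21. NDUFA8 and NDUFA11 were at -0.06 and -0.13, and NDUFA10 and NDUFA13, the latter also known as GRIM-19, were at 0.05 and 0.06. NDUFA13 shares its strand and most of its span with AC011448, which was at 1.69 and 0.553 FPKM with ZSCAN18 against 7.78 and 4.20 with the empty vector.

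The accessory subunits of the matrix arm were mixed. Of 9 genes 4 were negative and 5 positive, 3 lay lower and 2 higher without overlap, 1 was lower with a limma p under 0.05 before adjustment, and 0 passed. The share lower without overlap was 33.3%, against 24.4% of all tested genes, of which 35.8% lay higher. At such an unadjusted p, 11% of all tested genes were lower. The median of their fold changes was 0.05, while the medians of their levels within the ZSCAN18 libraries stood at -0.05 and -0.04 below the mean of the empty vector libraries on the log2 scale, so the summaries differ in sign. NDUFA6, a protein of the LYR family that binds the acyl carrier protein, was at 27.2 and 31.7 FPKM with ZSCAN18 against 34.6 and 44.0 with the empty vector. The groups were apart by less than the spread inside either of them, and the log2 fold change was -0.40 (SE 0.147, adjusted p in limma 0.191). NDUFS6, a zinc-binding subunit, was at 69.6 and 61.2 against 75.1 and 81.1, a log2 fold change of -0.25 (SE 0.086). NDUFV3 was at -0.17 and NDUFA9 at -0.07. On the other side NDUFS4, mutated in Leigh syndrome, was at 24.4 and 23.7 FPKM with ZSCAN18 against 21.9 and 22.2 with the empty vector, and both ZSCAN18 libraries were higher, by a log2 of 0.12 (SE 0.050, adjusted p in limma 0.229). NDUFA5 was at 0.09 and NDUFA2 at 0.05. NDUFAB1, the acyl carrier protein, which sits in both arms, was at 49.9 and 52.6 against 55.3 and 55.3, with a log2 fold change of -0.11.

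In NDUFA12 and NDUFA7, both matrix arm genes, 1 library decided the value. NDUFA12 was at 14.9 and 31.1 FPKM with ZSCAN18 against 16.2 and 14.8 with the empty vector. The second ZSCAN18 library stood 2.08-fold above the first, and the log2 fold change of 0.46 (SE 0.363) became -0.05 without the second library and 0.96 without the first. NDUFA7 was at 12.2 and 16.9 against 7.82 and 18.5, with a log2 fold change of 0.23 (SE 0.435) that became -0.34 without the first empty vector library and 0.80 without the second. AC010323, an overlapping gene on the same strand as NDUFA7, was at 2.71 and 0.842 with ZSCAN18 against 29 and 0.767 with the empty vector, so it was high in the library where NDUFA7 was low. The sum of both was 14.9 and 17.7 against 36.8 and 19.2. How the reads were divided between these genes is uncertain.

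NDUFA4 and NDUFA4L2 match the naming rule but are special cases. NDUFA4 was first described in complex I and is now counted as a subunit of cytochrome c oxidase, complex IV. Its FPKM was 33.0 and 36.0 with ZSCAN18 against 40.6 and 40.9 with the empty vector. Both ZSCAN18 libraries were lower, with a log2 fold change of -0.24 (SE 0.063) and an adjusted p in limma of 0.126. NDUFA4L2, a paralogue known as a target of hypoxia-inducible factors, was at 0.0154 and the table's floor of 0.0001 with ZSCAN18 and at 0.118 and the floor with the empty vector, so it was near 0 in every library. Leaving both out moved the median of the nuclear subunits from -0.12 to -0.11.

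The assembly factors had values on both sides. Of 8 genes 4 were negative and 4 positive, 3 lay lower and 2 higher without overlap, 3 were lower and 1 higher at an unadjusted p under 0.05 in limma, 0 passed, and the median log2 fold change was -0.04. Lower without overlap were 37.5% of them, against 24.4% of all tested genes, of which 35.8% lay higher. At such an unadjusted p, 11% of all tested genes were lower and 15.9% higher. The median was 0.06 without the second ZSCAN18 library and -0.16 without the first, so 1 library decides its direction. NDUFAF2, a paralogue of NDUFA12 that holds its place until the last steps of assembly, was at 45.3 and 42.2 FPKM with ZSCAN18 against 57.6 and 53.2 with the empty vector. Its mean of 43.8 ± 2.21 (SD, n = 2) against 55.4 ± 3.13 was 21.0% less, with a log2 fold change of -0.33 (SE 0.069) and an adjusted p in limma of 0.0904. NDUFAF3, which binds early matrix arm intermediates with NDUFAF4, was at 5.35 and 5.47 against 6.57 and 6.81, a log2 fold change of -0.26 (SE 0.063). NDUFAF8, the partner of NDUFAF5, was at 12.5 and 11.2 against 13.5 and 15.1. In these 3 genes every ZSCAN18 library lay below every empty vector library.

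NDUFAF7, which methylates an arginine of a core subunit, had the opposite order. It was at 4.69 and 4.67 FPKM with ZSCAN18 against 3.91 and 3.72 with the empty vector, a mean that was 22.6% higher, with a log2 fold change of 0.24 (SE 0.068, adjusted p in limma 0.138). NDUFAF1, which works on the membrane arm with ACAD9, ECSIT and TMEM126B, was at 12.2 and 12.2 against 11.6 and 9.63. Its groups did not overlap either, and the gap was smaller than the difference between the empty vector libraries. NDUFAF4, NDUFAF5 and NDUFAF6 were at 0.03, -0.12 and 0.07 on the log2 scale, with overlapping groups. NDUFAF6 overlaps TP53INP1 on the opposite strand; TP53INP1 was at 3.54 and 3.58 FPKM with ZSCAN18 against 1.17 and 1.21 with the empty vector.

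The 7 subunits of the mitochondrial genome were all lower in both ZSCAN18 libraries than in both empty vector libraries. None passed the gene test (0 of 7), 3 had an unadjusted p under 0.05 in limma, the adjusted p in limma ran from 0.118 to 0.266, and the median log2 fold change was -0.17. Lower without overlap were also 24.4% of all tested genes and 57.5% of those above 100 FPKM. At an unadjusted p under 0.05 in limma, 11% of all tested genes were lower. The median was -0.09 without the first empty vector library and -0.25 without the second. MT-ND1, which forms the quinone channel with matrix arm subunits, was at 4683 and 4725 FPKM with ZSCAN18 against 5809 and 5272 with the empty vector, a log2 fold change of -0.23 (SE 0.063). MT-ND2 was at 3935 and 3953 against 4685 and 4393 (log2 -0.20, SE 0.051), and MT-ND3 at 3176 and 3330 against 4038 and 3592 (log2 -0.23, SE 0.075). These 3 genes had the lowest fold changes, 13.1 to 15.1% below the empty vector means, and the ZSCAN18 libraries agreed more closely than the empty vector ones. MT-ND4L and MT-ND4, which share 1 message, were at -0.17 and -0.11. MT-ND5 was at -0.09, and MT-ND6, the member read from the opposite strand of the circle, was at -0.10.

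MTND2P28, a pseudogene in the nuclear genome that resembles MT-ND2, was listed at 760 and 760 FPKM with ZSCAN18 against 977 and 853 with the empty vector. MTND1P23 was listed at 15.4 and 18.2 against 22.4 and 18.2. Reads of near-identical copies cannot be divided with certainty, so the levels of MT-ND1 and MT-ND2 are uncertain to that extent. In all, mitochondrial genome genes took 34.1 and 33.7% of the FPKM with ZSCAN18 and 35.2 and 34.3% in the controls, and the MT-ND genes took 9.34 and 9.23% against 10.2 and 9.73%.

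Other messages of the mitochondrial genome were less uniform. Of 6, 4 were negative, 3 had groups that did not overlap, all lower as in 24.4% of all tested genes, and 0 passed, with a median log2 fold change of -0.09. MT-CO3, a subunit of complex IV, was at 8868 and 9352 FPKM against 11805 and 10273 (log2 -0.27, SE 0.086), and MT-CO1 and MT-CO2 were at -0.12 and -0.19. MT-ATP8, which had overlapping groups, was at 0.06. The ribosomal RNAs were at 0.13 for MT-RNR1 and -0.05 for MT-RNR2. The summed MT-ND messages were 0.507 and 0.505 of the summed other messages with ZSCAN18 against 0.553 and 0.521 with the empty vector. The groups did not overlap in this ratio, for which an exact permutation test of 2 against 2 libraries could not go below p = 0.33. MT-ATP8 was the highest of the other messages, at 20001 and 19632 FPKM with ZSCAN18 against 18116 and 19843 with the empty vector. MT-ATP6 was the lowest of them, at 1543 and 1521 FPKM with ZSCAN18 against 1307 and 1592 with the empty vector. The part of read assignment and transcript length in these levels was not tested. The sums of the other messages were 54015 and 54130 against 57819 and 56736. The separation in the ratio depends on MT-ATP8, and the groups overlap when that gene is left out of the sums.

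**Figure D3:**
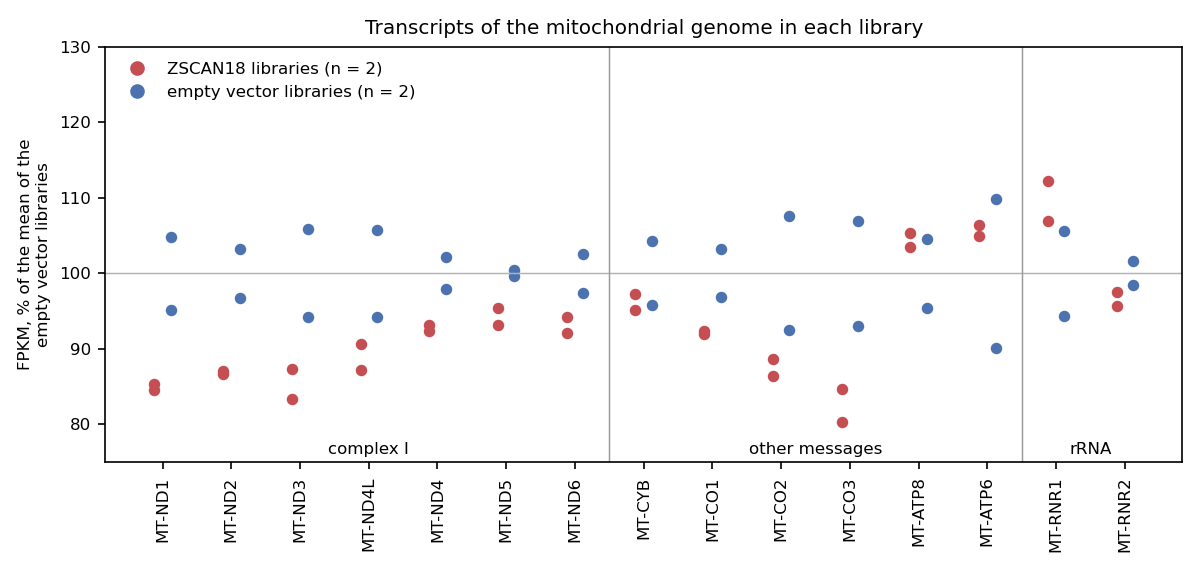
FPKM of each transcript of the mitochondrial genome as a percentage of its mean in the empty vector libraries, with 1 point per library. The 7 complex I messages have both ZSCAN18 points below both empty vector points, while MT-CYB, MT-ATP8 and MT-ATP6 have overlapping groups.

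Genes listed as acting on complex I from outside gave 0 calls in either direction, where 0.795% of all tested genes were called higher and 0.973% lower. Among 16 other assembly factors 11 were negative, 10 lay lower without overlap and 1 higher, 3 had a limma p under 0.05 before adjustment, and the median was -0.15. The share lower without overlap was 62.5%, against 24.4% of all tested genes, and the 3 of 16 compare with 11% of all tested genes. Of all tested genes 42.9% were negative and 35.8% lay higher without overlap. TMEM186, a membrane arm assembly protein, was at 8.13 and 8.36 FPKM with ZSCAN18 against 10.7 and 11.5 with the empty vector (log2 -0.38, SE 0.066, adjusted p in limma 0.0764). PYURF was at -0.16, ACAD9 at -0.20 and FOXRED1, an oxidoreductase-like factor, at -0.22. The 21 genes of mitochondrial transcription and RNA had 9 negative and 12 positive members and a median of 0.03, close to the 0.04 of all tested genes. TFB1M, which methylates mitochondrial ribosomal RNA, was at -0.34, TEFM, the mitochondrial transcription elongation factor, at 0.30, MTERF3 at 0.25 and FASTKD1 at 0.16. Of 11 regulators of mitochondrial biogenesis 9 were tested, 8 of them positive, with a median of 0.08. Positive were also 6753 of the 11822 tested genes, whose median was 0.04. In 3 of the regulators both ZSCAN18 libraries lay higher without overlap, where 35.8% of all tested genes did, and in 6 the groups overlapped. HCFC1, a coactivator, was at 0.25, GABPB1 and GABPA, which form an ETS factor, at 0.20 and 0.13, and YY1 at -0.35 with overlapping groups. The coactivator PPARGC1A was near 0, at a mean of 0.0883 FPKM with ZSCAN18 and 0.184 with the empty vector.

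The nuclear subunits of complexes II to V, which complete the respiratory chain and the ATP synthase, also had mostly negative values. Of 38 tested genes 35 were negative, 26 (68.4%) lay lower without overlap, 14 were lower with a limma p under 0.05 before adjustment and 0 passed, with a median of -0.15 beside -0.12 for the 38 tested nuclear subunits of complex I. Over all tested genes 42.9% were negative, 24.4% lower without overlap and 11% lower at such a p. ATP5MC1, ATP5PO and ATP5MC2, parts of the ATP synthase, were at -0.51, -0.37 and -0.38, and COX8A of complex IV was at -0.28. No test of a difference between the complexes was made.

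**Figure D4:**
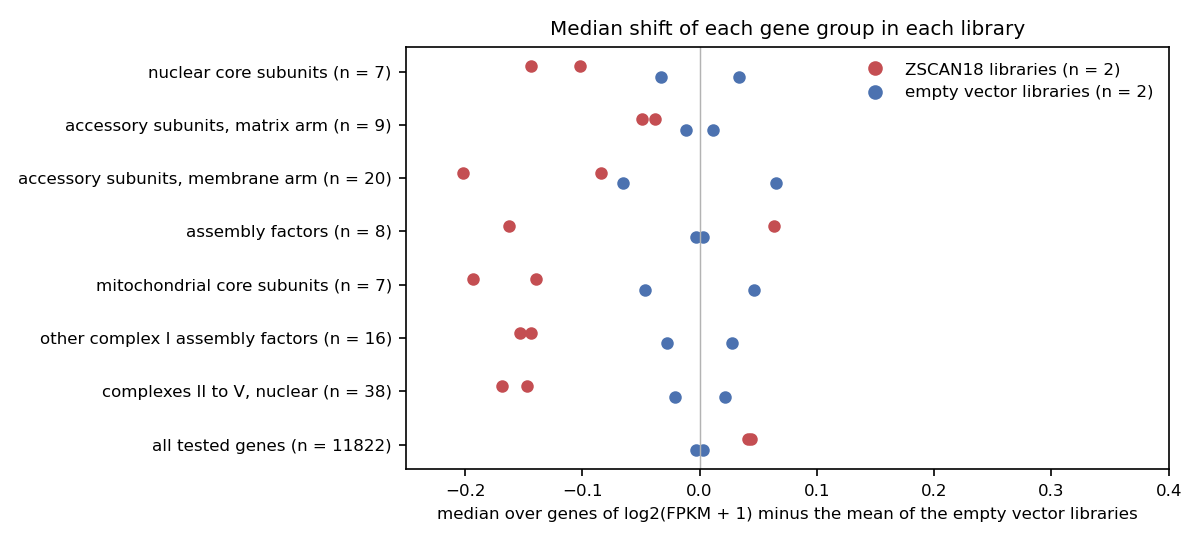
Median over the genes of each group of log2(FPKM + 1) minus the mean of the empty vector libraries, with 1 point per library and the number of tested genes in brackets. Both ZSCAN18 points lie below the empty vector points in each complex I group but the assembly factors, whose ZSCAN18 medians are -0.16 and 0.06, and lie above them for all tested genes.

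Transcript length and level went along with the fold change across the whole table. Tested genes with a median transcript of up to 1000 bases had a median log2 fold change of -0.04, and those above 4000 bases one of 0.11. Lower without overlap were 31.2% of the former and 15.8% of the latter. Of the 38 tested nuclear subunits 25 were in the class of up to 1000 bases, and their median was -0.11. Tested genes with a mean above 100 FPKM, the class that holds all 7 MT-ND genes, had a median of -0.11 with 57.5% of them lower without overlap. Genes between 20 and 100 FPKM had a median of -0.02, where the 15 nuclear subunits of that class had -0.17. Genes between 5 and 20 FPKM had one of 0.04, where the 18 nuclear subunits had -0.03. Lower without overlap were 34.8% of tested genes between 20 and 100 FPKM and 24.9% of those between 5 and 20. The part of length and level in the fold changes of complex I genes was not tested.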

How the data were processed

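Total RNA of NCI-N87 cells was harvested with Trizol and sequenced with standard Illumina library protocols, per the labels' protocols. The submitters' processing notes name DESeq2, edgeR 3.2.5, StringTie 1.3.4d, HISAT2 2.0.4, FastQC 0.10.1 and cutadapt 1.9, without their roles. The authors deposited 1 table that holds FPKM for each library, a linear fold (ratio), its log2 value, a p-value and a q-value, per the file headers. Neither the genome build nor the use of strand in counting is given in the sources used here. All 54 members overlapped their GENCODE release 29 (GRCh38) interval. Of 47 nuclear members, 10 overlapped a gene of the opposite strand with a mean of at least 1 FPKM, and 5 overlapped such a gene of the same strand. The empty vector columns carry sample titles; the other 2 match no title and were assigned to ZSCAN18 because the series has no other group.

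Genes that reached 1 FPKM in 2 or more libraries were tested with limma 3.58.1 in R 4.3.3 on log2(FPKM + 1) with a group term and an intensity trend (2 residual and 2.01 prior degrees of freedom), two-sided. The fit was also run on values simulated from its own model. The planted changes were larger than those of the members, so that run says nothing about changes of their size. Fold changes of low genes are understated by the added 1. If the commonest low product of FPKM and length is taken as 1 fragment, depths were about 23100000 to 24600000, and the counting error of a 1 kb transcript at 10 FPKM at most 6.58%; only 21.7 to 22.8% of low values were within 0.02 of whole multiples, so fragments were not recovered.

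The members, lists and alternatives were chosen with earlier results of these data known. 1 member is in every fit, count and median but is not reported singly here; all others are named. Each other list gave at most 4 names, by smallest unadjusted p. MT-ATP8, MT-ATP6, PPARGC1A, pseudogenes and overlapping genes were named after their values were seen.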

Additional observations from a re-analysis of the deposited data

How the results depend on the processing

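The tested members were refitted under 13 alternatives, and of the 52 given singly 34 kept the sign of their fold change in every one, 13 changed sign in at least 1, and MT-ND2, MT-ND3, MT-ND4, MT-ND5 and MT-ND6 were at exactly 0 after quantile normalization. The count of members that passed was 1, NDUFB4, with a minimum of 5 FPKM and after median-of-ratios scaling, and 0 under the other alternatives. Median-of-ratios scaling divided the ZSCAN18 libraries by 1.022 and 1.019 and the empty vector libraries by 0.985 and 0.987. This division lowers every fold change. It moved the median of all tested genes from 0.04 to 0.0019 and put NDUFAF4 at -0.014 and NDUFS8 at -0.031. After quantile normalization NDUFS8 was at -0.033, and the cause of that was not tested. Quantile normalization set the median of the MT-ND genes to 0, because genes that hold the same top ranks in every library receive the same values. With a minimum of 5 FPKM the median of the assembly factors was -0.25, since only some of the 8 were then tested. The median of the nuclear subunits stayed between -0.16 and -0.07 over the alternatives; the restrictions to subunits without an overlapping expressed gene (-0.13) and to those of at least 10 FPKM were added after seeing the data.

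Leaving out 1 library at a time moved the median of the assembly factors between -0.16 and 0.063, without the first and the second ZSCAN18 library. It moved that of the MT-ND genes between -0.25 and -0.091, without the second and the first empty vector library. Over these fits 13 of the 52 changed sign at least once: NDUFA2 from -0.13 to 0.24, NDUFA7 from -0.34 to 0.80, NDUFA8 from -0.17 to 0.042, NDUFA11 from -0.25 to 0.0013, NDUFA12 from -0.050 to 0.96, NDUFA13 from -0.10 to 0.23, NDUFAF4 from -0.076 to 0.14, NDUFAF5 from -0.27 to 0.034, NDUFAF6 from -0.053 to 0.19, NDUFB3 from -0.38 to 0.044, NDUFB5 from -0.020 to 0.12, NDUFB9 from -0.066 to 0.34 and NDUFS8 from -0.10 to 0.13. The main fit called 209 of all tested genes. Each of the fits without a library left 1 library in a group, so their counts of calls are not set beside it.

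With the column number as a replicate block 0 members passed, NDUFB4 had an adjusted p of 0.156 in limma, and 1 gene passed of all tested. Same-numbered libraries deviated together with a correlation of 0.03 over 11822 genes. The labels give no shared origin, so whether the numbers pair the libraries is not known.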
